A study of Mus musculus with 2 samples.

Results

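The NRF2 pathway and the metallothioneins were examined through 10 genes in Langerhans cells, which take up and present antigen in the epidermis. The genes were the regulators Nfe2l2 and Keap1, the NRF2 target genes Hmox1, Nqo1, Gclm, Gclc, Txnrd1 and Srxn1, and the metallothionein genes Mt1 and Mt2. They were taken by GENCODE symbol on GRCm38, and all 10 were found among the 55487 genes of the table. The cells came from ears of mice with the genotype HTR2A-/-, which lack the serotonin 2A receptor. They were sorted as CD207+ MHC II+ cells and treated after the sort for 24 hours with imiquimod, a Toll-like receptor 7 agonist, and with a-CD40L. The title of the study calls such cells monocyte-derived. The characteristics of both samples name imiquimod alone. The sources used here do not give the age, sex or strain of the mice, or how the gene was deleted. The single group held 2 samples, called library 1 and library 2, so every value describes stimulated knockout cells. No wild-type or untreated cells were analysed, and a difference between the libraries is a difference between replicates, not between conditions. The labels do not say whether the samples came from separate mice, so the spread between them may be technical.

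NRF2, the protein of Nfe2l2, is a transcription factor that turns on genes against oxidants and electrophiles. KEAP1 binds NRF2 and directs it to degradation, and oxidants or electrophiles that modify KEAP1 cysteines let NRF2 accumulate and bind antioxidant response elements together with small MAF proteins. Because this control acts mostly on the protein, the level of Nfe2l2 transcript does not by itself report NRF2 activity. Metallothioneins are small cysteine-rich proteins that bind zinc and copper. Their genes respond to metals through the transcription factor MTF1, and also to glucocorticoids and oxidative stress. In skin, both systems act in keratinocytes as well as in immune cells.

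The 10 genes did not move as a block between the libraries. Mt1, Mt2, Hmox1 and Nqo1 were each more than 3 times as high in library 2 as in library 1 by CPM, the count on a per-million scale of the library total. Txnrd1, Gclc and Nfe2l2 were lower in library 2, and Keap1, Gclm and Srxn1 differed little. Per kb of exon, the scale on which different genes can be compared, the highest mean levels were those of Mt2 (232 ± 215 CPM per kb, SD, n = 2) and Mt1 (211 ± 162). Hmox1 (57.7 ± 44.2), Nfe2l2 (45.8 ± 17.7) and Txnrd1 (37.3 ± 10.2) followed, and these 3 overlapped. Srxn1 was at 13.9 ± 2.60 CPM per kb, Gclc at 6.52 ± 1.98, Nqo1 at 3.56 ± 2.72, Keap1 at 3.21 ± 0.178 and Gclm at 2.40 ± 0.0457. Mt2 overlapped Mt1 and also Hmox1, since Mt2 in library 1 lay below Hmox1 in library 2, and the spread of Mt1 reached that of Hmox1. Nqo1 overlapped Gclc, Keap1 and Gclm. By SD, Mt1 and Mt2 also overlapped Nfe2l2, Mt2 overlapped Txnrd1, and Hmox1 overlapped Srxn1. Those pairs kept their order in each library. Compared within each library, Mt1 and Mt2 both lay above Hmox1. The order of Mt1 and Mt2 turned between the libraries. So did that of Hmox1 against Nfe2l2 and Txnrd1, and of Nqo1 against Gclc, Keap1 and Gclm, and these orders are not resolved. Levels also rest on the length used: with the principal transcript the means were 74.8 for Txnrd1, 70.3 for Nfe2l2 and 64.4 for Hmox1, the reverse order.

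Library 1 held 69925160 counts and library 2 42264685. Genes that skin cells are not known to use also carried counts, so 1135 protein-coding olfactory receptor genes served as a background. Their median was 0.221 CPM per kb of exon in library 1 and 0.645 in library 2. All 10 genes exceeded the 95th percentile of this background in both libraries (0.761 and 1.58 CPM per kb), as did 48.3% of protein-coding genes with a count. Nearest to that limit were Gclm in library 2 (1.54 times the limit), Keap1 in library 2 (1.95 times) and Nqo1 in library 1 (2.15 times). Htr2a, the deleted gene, had 77 counts in library 1 (0.196 CPM per kb) and 117 in library 2 (0.494), below the olfactory receptor median in both. The deleted part of the gene is not known here, and no wild-type cells show the level of the intact gene. These values therefore cannot check the genotype label. The libraries also differed in cell markers. Of 14 keratinocyte markers, 11 were at least 2-fold higher in library 2 and none was at 0. Their summed level was 4733 CPM in library 1 and 16542 CPM in library 2, a factor of 3.49, with Krt14 at 1315 and 4806 CPM. Of 7 Langerhans cell markers 4 were at least 2-fold lower in library 2. Of 8 mature dendritic cell markers 6 were at least 2-fold lower and 1 was at least 2-fold higher. The higher one was Lamp3 (1.12 and 3.90 CPM), not above background in both libraries and named after its value was seen. The marker counts use the TMM scaling described below, by which 4.95% of protein-coding genes above background were 2-fold higher and 20.7% lower. With total counts 2 of the 7 Langerhans cell markers were lower, and the keratinocyte and dendritic cell counts stayed. Over all tested genes, 38.6% were higher and 5.48% lower with total counts. By CPM the Langerhans cell markers Epcam (155 and 178) and Cdh1 (481 and 793), named after their values were seen, were higher in library 2. Summed levels of the Langerhans cell and mature dendritic cell markers were 19261 and 10379 CPM, and 2979 and 819 CPM. The langerin gene Cd207, named because the sort used its protein, was at 1125 and 1052 CPM. In RNA from a whole sorted sample, more cells of a type and more RNA per cell cannot be told apart. The part of these other cells in the results below was not tested.

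**Figure D1:**
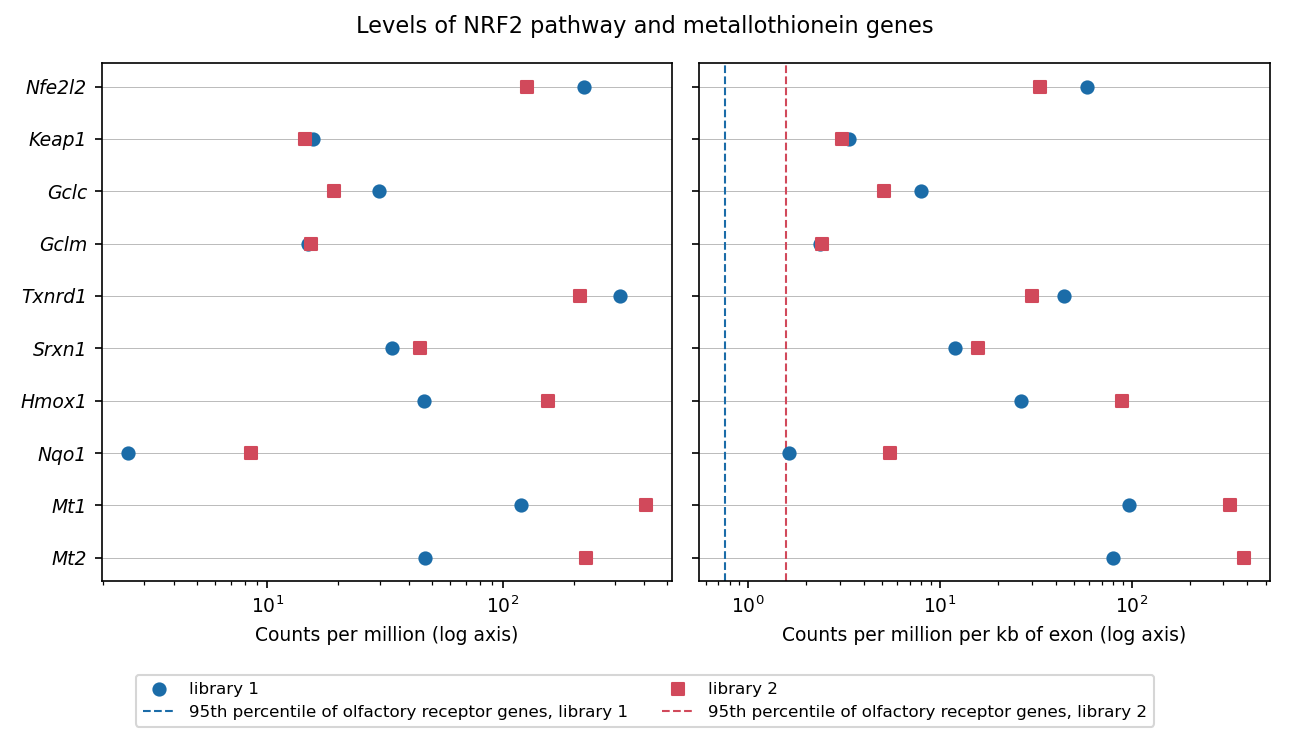
Level of each gene in library 1 (circles) and library 2 (squares), as CPM on the left and CPM per kb of exon on the right, both on log axes; dashed lines mark the 95th percentile of olfactory receptor genes in each library. Every gene lies to the right of its own library's line, and Hmox1, Nqo1, Mt1 and Mt2 lie further right in library 2.

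The metallothionein genes had the highest levels per kb of the 10 genes in both libraries. Mt1 and Mt2 lie next to each other on the plus strand of GRCm38 chromosome 8, Mt2 at 94172664 to 94173568 and Mt1 at 94179082 to 94180327. Both are protein-coding. Mt1 (ENSMUSG00000031765) had 8384 counts in library 1, or 119.9 CPM (95% Poisson interval 117 to 122), and 17169 in library 2, or 406 CPM (400.2 to 412). Mt2 (ENSMUSG00000031762) had 3280 counts, or 46.9 CPM (45.3 to 48.5), and 9524 counts, or 225 CPM (221 to 229.9). Library 2 was thus 3.39 times library 1 for Mt1 and 4.80 times for Mt2, well outside the counting intervals. These intervals cover counting error only. Per kb of exon, Mt1 was at 96.2 and 326 CPM and Mt2 at 79.8 and 383 CPM, which put both above at least 98.5% of protein-coding genes in each library.

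The coding sequences of Mt1 (between 94179311 and 94180190) and Mt2 (between 94172848 and 94173424) are shown because reads of near-identical copies can be split between them. They are read 5′ to 3′ from GENCODE M21 transcripts without the stop codon, and capitals mark the bases at which they differ.
Mt1: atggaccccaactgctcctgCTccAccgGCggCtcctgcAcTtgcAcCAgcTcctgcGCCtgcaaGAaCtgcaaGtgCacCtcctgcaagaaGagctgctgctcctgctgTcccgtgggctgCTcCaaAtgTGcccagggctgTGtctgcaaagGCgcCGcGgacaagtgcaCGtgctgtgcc
Mt2: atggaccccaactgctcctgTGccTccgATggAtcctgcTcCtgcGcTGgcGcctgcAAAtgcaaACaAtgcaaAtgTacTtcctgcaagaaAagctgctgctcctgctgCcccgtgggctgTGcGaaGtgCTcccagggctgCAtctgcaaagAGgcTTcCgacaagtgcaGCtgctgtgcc
Of 183 bases 145 were identical (79.2%), and 20 of the 61 codons in each gene were the cysteine codons TGC or TGT, which give metallothioneins their metal-binding residues. The longest stretch shared by the 2 principal transcripts was 20 bases. An antisense gene, Gm45774, shares 432 exon bases with Mt2 and had 427 and 947 counts. The sources used here do not say whether the counting used strand, so reads of Mt2 and its antisense partner cannot be told apart.

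Mt1 and Mt2 did not differ between the libraries by the same factor. The ratio of Mt1 to Mt2 counts within a library, which needs no scaling between libraries, was 2.56 in library 1 (95% binomial interval 2.46 to 2.66) and 1.80 in library 2 (1.76 to 1.85). Per kb of exon the ratio was 1.21 and 0.851, so the order of this pair turned with the library. That order rests on the length used: with the principal transcript of each gene (549 and 511 bases) it was 2.38 and 1.68. Mt3 and Mt4, the other metallothionein genes of the same cluster, were not above background in both libraries, with Mt3 at 0 counts in library 1 and 0.237 CPM in library 2 and Mt4 at 0.715 and 0.355 CPM. A count of 0 in library 1 allows up to 0.0429 CPM.

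The promoter windows of Mt1 and Mt2, taken from RefSeq on GRCm38.p6 (250 bases before to 50 after the gene start), are shown because these genes were high together. They are chr8:94178839-94179138 for Mt1 and chr8:94172368-94172667 for Mt2, both on the plus strand. Capitals mark metal response element cores, searched as TGCGCNC and TGCACNC on both strands.
Mt1: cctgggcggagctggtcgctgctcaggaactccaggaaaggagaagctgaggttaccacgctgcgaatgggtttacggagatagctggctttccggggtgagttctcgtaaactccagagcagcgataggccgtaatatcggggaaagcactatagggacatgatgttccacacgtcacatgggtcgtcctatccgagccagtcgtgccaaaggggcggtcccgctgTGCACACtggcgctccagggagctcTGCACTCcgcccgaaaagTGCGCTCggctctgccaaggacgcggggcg
Mt2: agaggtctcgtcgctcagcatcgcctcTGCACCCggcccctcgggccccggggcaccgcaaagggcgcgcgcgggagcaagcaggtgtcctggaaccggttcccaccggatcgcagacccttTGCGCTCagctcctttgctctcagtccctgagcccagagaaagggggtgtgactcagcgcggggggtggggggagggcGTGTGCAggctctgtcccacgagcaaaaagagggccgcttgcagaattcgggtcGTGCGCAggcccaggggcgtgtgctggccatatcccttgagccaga
The window held 3 cores in Mt1 and 4 in Mt2. At least 1 such core was present in 25.7% of 32851 windows of the same length, and the share with 3 or 4 was not computed. A match is a description of the letters and not evidence of a site in use. Of the other genes with a window, Gclm held 3 of these cores and Srxn1 1, while Nfe2l2, Keap1, Nqo1 and the 3 windows of Txnrd1 held 0. RefSeq windows were found for 8 of the 10 genes. Hmox1 and Gclc had none in the table used.

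Hmox1 and Nqo1, the NRF2 targets with a role outside glutathione and thioredoxin, were both higher in library 2. Hmox1 (ENSMUSG00000005413, plus strand of chromosome 8 from 75093621 to 75100589) encodes heme oxygenase 1, which breaks heme down to biliverdin, iron and carbon monoxide. It had 3240 counts in library 1, or 46.3 CPM (44.8 to 47.96), and 6587 in library 2, or 156 CPM (152 to 159.7), a factor of 3.36. Nqo1 (ENSMUSG00000003849, minus strand of chromosome 8 from 107388225 to 107403206) encodes a quinone reductase. It had 178 counts, or 2.55 CPM (2.19 to 2.95), and 360 counts, or 8.52 CPM (7.66 to 9.44), a factor of 3.35. Hmox1 counts were 18.2 times those of Nqo1 in library 1 (95% binomial interval 15.6 to 21.3) and 18.3 times in library 2 (16.5 to 20.4). The ratio of Mt1 to Hmox1, looked at after the values were seen, was 2.59 (2.49 to 2.696) and 2.61 (2.53 to 2.68). These 3 genes kept their proportions across the libraries within counting error, while Mt2 differed more. Hmox2, the constitutive heme oxygenase, had the opposite order to Hmox1, at 39.6 and 19.6 CPM.

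Nfe2l2 itself was lower in the library with more Hmox1. Nfe2l2 (ENSMUSG00000015839, minus strand of chromosome 2 from 75675513 to 75704641) had 15478 counts in library 1, or 221 CPM (218 to 225), and 5342 in library 2, or 126 CPM (123 to 129.8). Keap1 (ENSMUSG00000003308, minus strand of chromosome 9 from 21229730 to 21239361) had 1095 counts, or 15.7 CPM (14.7 to 16.6), and 612 counts, or 14.5 CPM (13.4 to 15.7). Keap1 CPM overlapped between the libraries within counting error, whereas Nfe2l2 was 1.75 times as high in library 1. Nfe2l2 counts exceeded those of Keap1 14.1 times in library 1 (13.3 to 15.04) and 8.73 times in library 2 (8.03 to 9.51). Per kb of exon the factors were 17.5 and 10.8. Keap1 shares 510 exon bases with the antisense gene Gm16754, which had 125 and 143 counts. The ratio of Hmox1 to Nfe2l2 counts, chosen after the values were seen, was 0.209 in library 1 and 1.23 in library 2, a change of 5.89 times.

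Gclc and Gclm encode the catalytic and the modifier subunit of glutamate-cysteine ligase, the rate-limiting enzyme of glutathione synthesis, and they differed from each other. Gclc (ENSMUSG00000032350, plus strand of chromosome 9 from 77754535 to 77794485) had 2085 counts in library 1, or 29.8 CPM (28.6 to 31.1), and 814 in library 2, or 19.3 CPM (17.96 to 20.6). Gclm (ENSMUSG00000028124, plus strand of chromosome 3 from 122245557 to 122270732) had 1042 counts, or 14.9 CPM (14.0 to 15.8), and 647 counts, or 15.3 CPM (14.2 to 16.5). Gclc was thus higher in library 1 and Gclm did not differ beyond counting error in CPM. The ratio of Gclc to Gclm counts was 2.00 (1.86 to 2.16) and 1.26 (1.13 to 1.40), or 3.34 and 2.10 per kb of exon, so transcripts of the catalytic subunit were more abundant in both libraries. Gm17494, a gene on the opposite strand that shares 296 exon bases with Gclm, had 10030 and 6894 counts, far more than Gclm. Reads of Gclm and Gm17494 over these bases cannot be told apart without strand.

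Txnrd1 and Srxn1 encode thioredoxin reductase 1, which keeps thioredoxin reduced, and sulfiredoxin, which repairs over-oxidised peroxiredoxins. Txnrd1 (ENSMUSG00000020250, plus strand of chromosome 10 from 82833951 to 82897712) had 22059 counts in library 1, or 315 CPM (311 to 319.7), and 9000 in library 2, or 213 CPM (209 to 217). Srxn1 (ENSMUSG00000032802, plus strand of chromosome 2 from 152105516 to 152111376) had 2374 counts, or 33.95 CPM (32.6 to 35.3), and 1873 counts, or 44.3 CPM (42.3 to 46.4). They differed in opposite directions by CPM, and the ratio of Srxn1 to Txnrd1 counts was 0.108 (0.103 to 0.112) and 0.208 (0.198 to 0.219). Per kb of exon it was 0.270 and 0.523. Hmox1 counts were 0.147 times those of Txnrd1 in library 1 and 0.732 times in library 2, a pair chosen after the values were seen. These NRF2 targets thus stood in proportions that differed 4.98 times between replicates of the group.

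Among the 8 genes with a RefSeq window, Srxn1 held the most antioxidant response element cores, searched as TGACNNNGC and TGAGNNNGC on both strands, and its window (chr2:152105274-152105573, plus strand, GRCm38.p6) is shown for that reason. Capitals mark the cores.
Srxn1: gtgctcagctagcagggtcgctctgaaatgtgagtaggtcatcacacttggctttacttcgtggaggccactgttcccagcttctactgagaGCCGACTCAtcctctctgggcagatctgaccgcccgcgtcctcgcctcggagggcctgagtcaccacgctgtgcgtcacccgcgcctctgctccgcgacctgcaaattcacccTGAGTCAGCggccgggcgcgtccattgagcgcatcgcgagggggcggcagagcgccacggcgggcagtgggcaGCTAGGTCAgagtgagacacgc
It held 3 cores. Nfe2l2, Gclm, Mt2 and 1 of 3 Txnrd1 windows held 1 each, and Keap1, Nqo1, Mt1 and the other Txnrd1 windows held 0. At least 1 such core was present in 27.8% of all windows, and the share with 3 was not computed. In Gclm the antioxidant core overlapped a metal core, and in the other windows no match of 1 kind overlapped the other. Response elements outside this window were not searched.

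**Figure D2:**
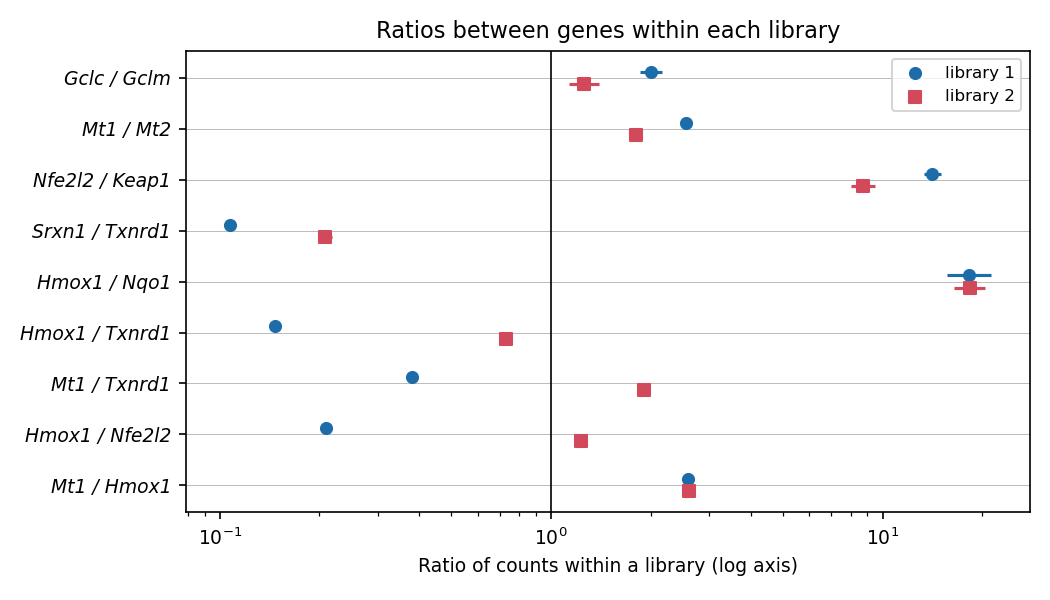
Ratio of counts between pairs of the 10 genes within library 1 (circles) and library 2 (squares), with exact 95% binomial intervals, on a log axis. Hmox1 to Nqo1 and Mt1 to Hmox1 stayed in place. Ratios of Hmox1, Mt1 and Srxn1 to Txnrd1 and of Hmox1 to Nfe2l2 moved to the right in library 2. Those of Gclc to Gclm, Mt1 to Mt2 and Nfe2l2 to Keap1 moved to the left.

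To set these differences against all genes, counts were scaled by TMM, which lowers each log2 ratio by 0.50 relative to total counts, and ratios were taken as library 2 over library 1. The 4 genes at least 2-fold higher in library 2 were Mt2 (log2 ratio 1.76, 95% interval 1.71 to 1.82), Mt1 (1.26, 1.22 to 1.30), Hmox1 (1.25, 1.19 to 1.31) and Nqo1 (1.24, 0.98 to 1.51). They were above 2-fold with total counts as well. The share of genes at least 2-fold higher was 24.5% of the 30373 tested, many of which lie within background, and 4.95% of the 10385 protein-coding genes above background in both libraries. With total counts it was 38.6% of all tested genes. With TMM the central 90% of protein-coding genes above background spanned -1.77 to 0.99, with a median of -0.43, and all 4 ratios lay above it.

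The 3 genes at least 2-fold lower in library 2 were Nfe2l2 (log2 ratio -1.31, -1.35 to -1.26), Gclc (-1.13, -1.25 to -1.01) and Txnrd1 (-1.07, -1.10 to -1.03). This call rests on the scaling, since with total counts the ratios were -0.81, -0.63 and -0.57 and no gene of the 10 was 2-fold lower. The share at least 2-fold lower was 12.6% of all tested genes, 20.7% of protein-coding genes above background, and 5.48% of all tested genes with total counts. All 3 lay inside the central 90% of protein-coding genes above background. For Keap1 the TMM log2 ratio was -0.61, and -0.11 with total counts (95% interval -0.26 to 0.03). Gclm had -0.46 and 0.04 (-0.10 to 0.18 with total counts), and Srxn1 -0.12 and 0.38, so the direction of both turned with the scaling. The total-count intervals of Keap1 and Gclm included 0, so their result in the test that follows, which used TMM, rests on the scaling. In the exact binomial test of edgeR, adjusted by Benjamini-Hochberg, all 10 genes passed, but so did 80.2% of all tested genes, and the test covers sampling noise between these libraries alone.

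**Figure D3:**
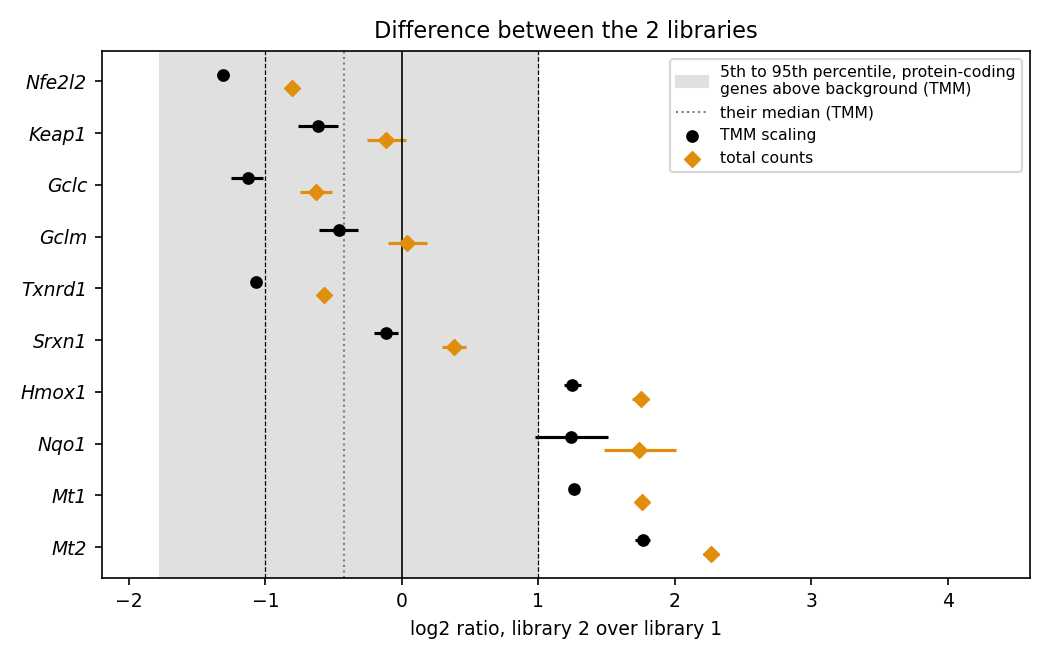
Log2 ratio of library 2 over library 1 for each gene with TMM scaling (circles) and total counts (diamonds), with 95% binomial intervals. The grey band is the 5th to 95th percentile of protein-coding genes above background with TMM, and applies to the circles alone. With total counts that range was -1.27 to 1.49. Dashed lines mark 2-fold. With either scaling Hmox1, Nqo1, Mt1 and Mt2 lie beyond 2-fold on the right.

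The wider pathway was described with 8 lists of 97 genes, of which 85 were above background in both libraries. By TMM, 6 of the 95 tested were at least 2-fold higher in library 2, 25 were at least 2-fold lower and 64 lay between. The same shares were 4.95% and 20.7% of protein-coding genes above background, a set that leaves out some of the 95. Of all tested genes they were 24.5% and 12.6%. Their median log2 ratio was -0.46, beside -0.43 for protein-coding genes above background and 0.15 for all tested genes. The median of the 10 genes was -0.29. With total counts the split of the 95 was 15 higher and 6 lower, with a median of 0.04. Over all tested genes, 38.6% were at least 2-fold higher and 5.48% lower with total counts. These shares also stand beside the total-count numbers of each list below. The total-count shares of protein-coding genes above background were not computed. The median with total counts was 0.07 for protein-coding genes above background and 0.65 for all tested genes. Genes named below because they make up a count of 5 or fewer were chosen after their values were seen.

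In the list of NRF2 partners and regulators no gene of 13 passed 2-fold upward in library 2 with TMM, 3 passed it downward, and the median was -0.77. None was 2-fold apart with total counts. Sqstm1, the autophagy receptor p62 that binds KEAP1, was the most abundant per kb at 547 and 465 CPM. Nfe2l1, a relative of Nfe2l2, had the highest ratio at 176 and 285 CPM (log2 ratio 0.19 with TMM, 0.70 with total counts). The small MAF gene Maff was at 116.9 and 97.2 CPM, and Nfe2l3 had the lowest ratio at 12.97 and 7.88 CPM. The 3 lower genes were Nfe2l3, Mafk and Cul3, which encodes the ubiquitin ligase scaffold that works with KEAP1. Cul3 was at 157 and 109 CPM and Mafk at 80.9 and 55.96 CPM.

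Of 20 genes of glutathione synthesis and use, 3 passed 2-fold upward in library 2 and 5 downward with TMM (9 and 0 with total counts), with a median of -0.32. The 3 were Gsta4, a glutathione transferase (6.88 and 59.1 CPM, log2 ratio 2.60), Ggct (21.4 and 96.8 CPM, 1.68) and Chac1 (4.45 and 14.6 CPM, 1.21), which both act in glutathione breakdown. The 5 lower genes were Slc7a11, the cystine importer, Gsr, glutathione reductase, Gpx1, Gpx4 and Glrx, with Gsr lowest at 68.3 and 35.5 CPM (-1.44). Slc3a2, the partner chain of Slc7a11, was at 342 and 338 CPM, and Gpx1 at 210.3 and 143 CPM.

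Of 11 thioredoxins and peroxiredoxins, 0 passed 2-fold upward in library 2 and with TMM 2 passed it downward (Txn1, 49.3 and 30.4 CPM, and the mitochondrial peroxiredoxin Prdx3, 19.6 and 8.40 CPM). With total counts Prdx3 alone passed it. The median was -0.20 with TMM and 0.30 with total counts. Txnip, an inhibitor of thioredoxin, was at 145 and 185 CPM, Prdx1 at 78.3 and 96.2 CPM and Txnrd3, with the highest ratio, at 5.91 and 8.92 CPM. The 6 genes of NADPH supply had a TMM median of -0.96, with 0 higher and 3 lower: Pgd, Taldo1 and Idh1 (47.3 and 14.4 CPM, -2.21). With total counts Idh1 alone stayed at least 2-fold lower, and the median was -0.46. Tkt was at 147 and 119 CPM and Me1, malic enzyme 1, had the highest ratio at 5.82 and 11.4 CPM. Of 5 genes of superoxide and peroxide removal 0 were at least 2-fold higher and 3 were lower with TMM (Sod1, 98.4 and 58.6 CPM, catalase Cat, 50.2 and 26.3 CPM, and Sod3), with a median of -1.25. With total counts Sod3 alone was 2-fold lower, and the median was -0.75. Sod3 was not above background in library 2. Sod2, the mitochondrial superoxide dismutase, was at 95.7 and 99.6 CPM.

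The list of heme breakdown and iron held 1 gene at least 2-fold higher in library 2, Slc40a1, the iron exporter ferroportin, which was above background in neither library (2.93 and 8.83 CPM). With TMM, 2 of 12 genes were at least 2-fold lower, Hmox2 and Ftl1, and the median was -0.31. With total counts Hmox2 alone was 2-fold lower. The ferritin genes Fth1 (3048 and 2254 CPM) and Ftl1 (822 and 468 CPM) were the most abundant of all 97 genes. Por was at 85.7 and 117 CPM and the transferrin receptor gene Tfrc at 80.5 and 111 CPM. Among 12 other NRF2 target genes 1 was at least 2-fold higher, the aldo-keto reductase Akr1b8 (4.29 and 20.6 CPM, log2 ratio 1.76). Of these 12, 3 were at least 2-fold lower: the exporter gene Abcc4 (95.4 and 46.9 CPM, -1.52), Osgin1 and Nqo2, the last not above background in library 2. With total counts 3 of the 12 were higher and 2 lower. The TMM median was -0.39, with Abcc1 at 146 and 171 CPM and Aldh3a1 at 13.7 and 25.3 CPM.

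In the list of zinc and copper handling, 1 of 16 tested genes was at least 2-fold higher in library 2 with TMM, and 2 with total counts. The gene under both was Slc30a1, the zinc exporter of the cell membrane and a known MTF1 target like Mt1 and Mt2, at 11.6 and 41.1 CPM (log2 ratio 1.33 with TMM, 1.83 with total counts). Mtf1 itself was at 28.7 and 52.1 CPM, named after its value was seen (0.36 with TMM, 0.86 with total counts). With TMM, 4 genes were at least 2-fold lower, the transporter genes Slc30a7, Slc39a1, Slc39a14 and Atp7a, and with total counts none was. The lowest was Slc30a7 (53.1 and 32.5 CPM, -1.21), and the list median was -0.31. Atox1, a copper chaperone, was at 35.8 and 27.4 CPM, Slc39a1 at 57.6 and 39.5 CPM and Slc39a7 at 40.3 and 49.3 CPM.

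**Figure D4:**
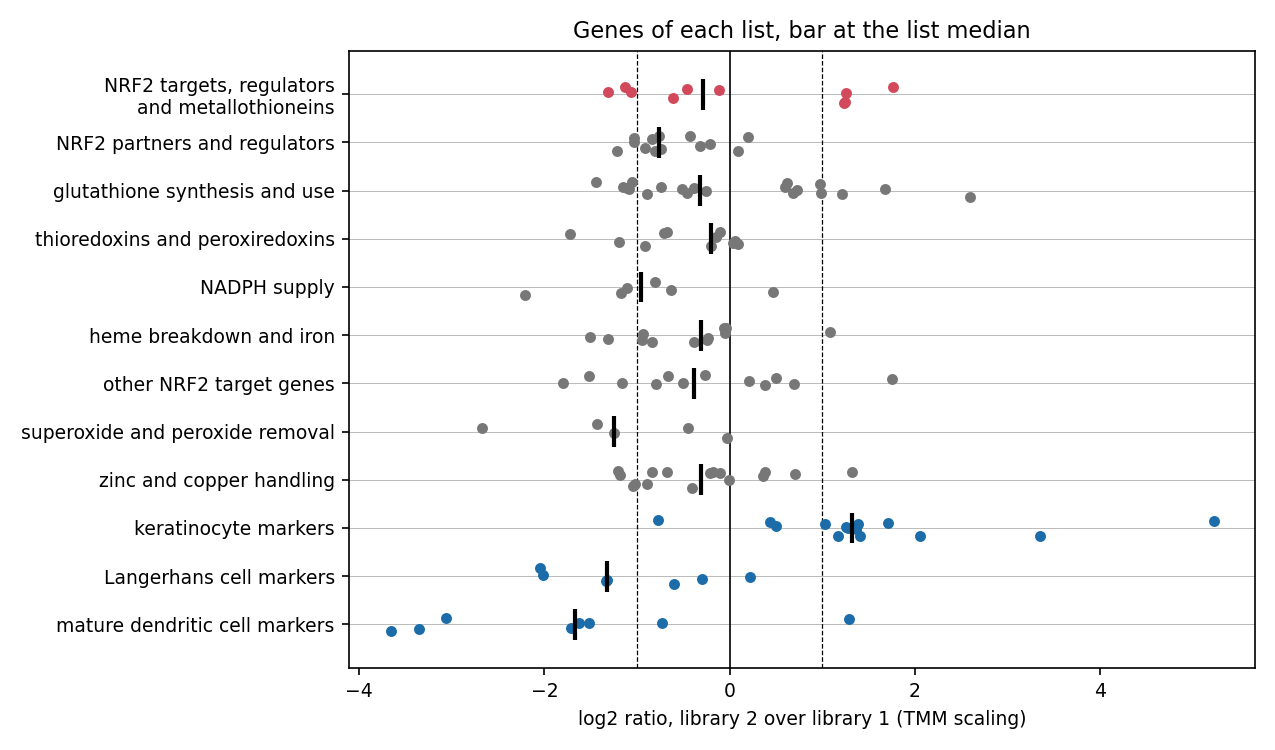
Log2 ratio of library 2 over library 1 (TMM scaling) for each gene of the pathway lists and of 3 marker lists, with a bar at each list median and dashed lines at 2-fold. The 10 genes at the top fall into a set beyond 2-fold on the right and a set at or below 0, and keratinocyte markers lie mostly to the right.

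The other marker lists were read for their place beside the 4 genes higher in library 2. Of 8 monocyte and macrophage markers 4 were at least 2-fold lower and 1 at least 2-fold higher with either scaling. The TMM shares were 20.7% and 4.95% of protein-coding genes above background. With total counts 5.48% of all tested genes were lower and 38.6% higher. The summed level of the 8 markers was 2126 and 1190 CPM. The higher one was Cd163, a scavenger receptor that takes up haemoglobin, at 17.9 and 142 CPM, named after its value was seen. The 3 highest per kb were Lyz2, Cd14 and Csf1r. Lyz2 was at 239 and 235 CPM, Cd14 at 231 and 87.9 CPM and Csf1r at 738 and 263 CPM. Summed levels of fibroblast (114 and 42.7 CPM), T cell (187 and 116 CPM) and endothelial markers (83.2 and 45.6 CPM) were lower in library 2, and those of melanocyte markers (5.12 and 15.5 CPM) were higher. None of the 6 fibroblast and 5 melanocyte markers, 1 of 5 endothelial and 4 of 6 T cell markers were above background in both libraries. The melanocyte marker Tyrp1 was at 0 counts in library 1.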

How the data were processed

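RNA from sorted Langerhans cells (10 to 70 ng) was made into stranded total RNA libraries with a low-input kit, per the labels' protocols. The authors deposited raw counts per gene; build GRCm38 and the tools HISAT2, StringTie, Trimmomatic and SAMtools, without versions, are named in the submitters' processing notes. For the counting step, tool and use of strand: not given in the sources used here. Of 55489 deposited rows, 2 (a blank row and a row of totals) named no gene and were left out. Of 55487 genes, 55227 matched GENCODE M21, which gave symbols, coordinates and exon lengths. Library 2 is the column with replicate number 2. Library 1 is the unnumbered column, mapped to the group by its name.

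Library totals of 69925160 and 42264685 counts set the precision, given as exact Poisson intervals of CPM. The 30373 genes that reached 1 CPM in either library were tested with edgeR 4.0.16 in R 4.3.3: TMM scaling, prior count 1, log2 ratio of library 2 over library 1, a 2-fold call, and an exact binomial test (a chi-square approximation for very large sums) with Benjamini-Hochberg adjustment at 0.05. No quasi-likelihood test of a condition is possible with a single group. The test was checked on simulated data. Ratios within a library have exact binomial intervals. Background is the 95th percentile of olfactory receptor genes. Alternatives were DESeq2 1.42.0 size factors, total counts, other filters, a prior count of 5, a dispersion of 0.04, background subtraction, other transcript lengths and each library alone.

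Named genes are all 10 genes and, of each of the 8 pathway lists, the 3 with the highest mean CPM per kb, those with the highest and lowest ratio above background, and genes needed to explain a count of 5 or fewer. Of the 8 cell marker lists, the 3 highest per kb could be named, and others named are marked in the text. The genes and lists were chosen with earlier results of these data known. The principal-transcript length and 4 of the 9 ratios were added after the values were seen.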

Additional observations from a re-analysis of the deposited data

How the results depend on the processing

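No paired analysis was possible because the study has a single group. All 10 genes stayed above background at the 99th percentile and with the longest transcript as length. At the 99th percentile Gclm in library 2 was close to the limit, at 2.43 against 2.34 CPM per kb. Each library alone gave 10 as well, which follows from the call in both. The 4 genes at least 2-fold higher in library 2 stayed 4 under each scaling, filter, prior count and background subtraction run. With total counts the number at least 2-fold lower went from 3 to 0, and Gclm turned to 0.039 and Srxn1 to 0.38 on the log2 scale. The pathway lists then held 15 higher and 6 lower genes in place of 6 and 25. The total-count shares of all tested genes were 38.6% higher and 5.48% lower. At a dispersion of 0.04, edgeR called 10204 genes in place of 24371, or 33.6% of all tested genes in place of 80.2%. Of the 10 genes it called 7. The median level over the 10 genes, 25.6 CPM per kb, was 39.2 with the longest or the principal transcript as length, and 19.2 to 22.9 when replicate 1 or 2 was left out. With those lengths Nfe2l2 to Keap1 per kb was 20.6 and 12.7 in libraries 1 and 2, and Hmox1 to Nqo1 in library 2 was 18.1. Srxn1 to Txnrd1 was 0.139 and 0.268 with the longest transcript and 0.135 and 0.261 with the principal one. Mt1 to Mt2 with the principal transcript was 2.38 and, turned in order, 1.68. These differ because the lengths differ. With background subtracted, Nfe2l2 to Keap1 was 18.6 and 13.4, Gclc to Gclm in library 2 was 2.50 and Hmox1 to Nqo1 in library 2 was 18.3. Of the values for single genes, 82 stayed within their error and 26 moved beyond it without a change of direction. The levels with 1 library left out count among the 82. With 2 libraries they could not move beyond the SD, so they are no check. With 2 libraries, the spread is poorly known.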
